A study of Homo sapiens with 3 samples.

Results

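The aminoacyl-tRNA synthetases are the enzymes that load each transfer RNA (tRNA) with its amino acid. The 36 genes described here were chosen by their symbols, as the synthetases of the cytosol, including those shared with mitochondria (20 genes), and those of mitochondria, whose symbols end in 2 (16 genes), out of the 25702 genes in the count tables. They were measured in Molm13, a human acute myeloid leukemia cell line established from peripheral blood with an internal tandem duplication of the FLT3 gene. Asynchronous cells grown in RPMI medium with 10% fetal bovine serum were exposed for 6 h to the vehicle DMSO, to 50 nM pyrvinium or to 100 nM pyrvinium, an anthelmintic cyanine dye. Each condition had 1 RNA-seq library, so no difference has a replicate check. Every test compares libraries and not the conditions, and every interval covers counting error only.

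Each synthetase joins an amino acid to the end of its own tRNA in an ATP-dependent reaction, and the charged tRNA then carries that amino acid to the ribosome. Human cells keep a cytosolic set and a mitochondrial set, nearly all encoded by separate nuclear genes, while GARS and KARS supply both compartments from the same gene. Several cytosolic synthetases are held with scaffold proteins in the multi-synthetase complex, and the enzymes fall into class I and class II by the fold of their catalytic domain. Many cytosolic synthetase genes are known targets of the transcription factor ATF4, which is made when the eIF2α kinases are active, for example under amino acid shortage.

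The libraries held 23165771 counts (DMSO), 22677038 counts (50 nM) and 24075123 counts (100 nM). All 36 synthetases passed the filter of at least 10 counts in at least 1 library, and their counts ran from 139 to 18970. A set of 8 myeloid and leukemia markers held 291 to 11181 counts per library, with summed counts of 25487 (DMSO), 26673 (50 nM) and 29713 (100 nM). Among 6 markers of T cells, B cells, epithelium and fibroblasts, CD3E and EPCAM had no count in any library, the highest count was 26, and the summed counts were 33, 27 and 24. Of the 8, FLT3 and MPO rose at 100 nM, with log2 fold changes of 0.77 and 0.57, and FLT3 alone went from 6304 counts in DMSO to 11181. SPI1 (-0.32), HOXA9 (-0.24), CEBPA (-0.12) and CD33 (-0.09) had intervals below 0 without passing the fold limit, PTPRC stood at -0.01 and MEIS1 at 0.13. The part of these markers in the results below was not tested. In bulk RNA, a different make-up of the culture and a different amount of RNA per cell cannot be told apart.

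The sequences shown first are those of a short motif at the start sites, to which the changes of the cytosolic genes are set further on. In the RefSeq promoters (GRCh38.p14), which run from 250 bases before to 50 bases after a start, the motif TGATGNAA was searched on both strands. It is the shared part of the elements bound by C/EBP and ATF proteins. The motif stood in 7 of the 16 cytosolic synthetase genes with a promoter entry (43.8%) and in 1 of 14 mitochondrial synthetase genes (7.14%). It stood in 1 of 20 other genes of tRNA charging, SEPHS1 (5%), and in 1217 of all 27305 genes (4.46%). The 7 cytosolic windows and the mitochondrial one are shown with 8 bases on either side, 5′ to 3′ on the strand that carries the motif, with the motif in capitals and with GRCh37 coordinates from an exact match of the whole promoter.
AARS (alanine; chr16:70323581-70323604, plus strand): aacttggcTGATGCAActgcgaga
CARS (cysteine; chr11:3078640-3078663, plus strand): ctagaatcTGATGCAAccgccgcc
GARS (glycine; chr7:30634453-30634476, minus strand): tcggagcaTGATGAAAtcgccgcg
IARS (isoleucine; chr9:95055977-95056000, plus strand): cacggaggTGATGCAAcgcgctga
MARS (methionine; chr12:57881839-57881862, minus strand): tccctcgcTGATGCAAccggaacc
NARS (asparagine; chr18:55289039-55289062, minus strand): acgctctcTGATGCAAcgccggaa
TARS (threonine; chr5:33441065-33441088, minus strand): ggaccagcTGATGCAAtcgaaagg
YARS2 (mitochondrial tyrosine; chr12:32909013-32909036, minus strand): cacactgcTGATGGAAaaattaag

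All 7 cytosolic windows were followed by T or C after the motif, and with that letter required (TGATGNAAT or TGATGNAAC) the share was again 43.8% of the cytosolic genes, against 0% of the mitochondrial and 2.18% of all genes. In the deposited hg19 gene models, all 24 bases of the CARS, GARS, IARS, NARS and TARS windows and 12 bases of the MARS window were exonic, in transcribed but not translated sequence (UTR) by GENCODE 44. The AARS window lay 168 bases upstream of the deposited AARS model, where GENCODE 44 places exons of AARS and of the neighbouring gene DDX19B, and the YARS2 window lay 138 bases upstream of YARS2. DARS, LARS, VARS, YARS, AARS2 and VARS2 were not in the promoter table. A match describes letters only and is not a measured binding site.

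Together the synthetases made up 0.661% of the DMSO library (95% Clopper-Pearson interval 0.658 to 0.665%). Their share was 0.750% of the 50 nM library (0.747 to 0.754%) and 0.789% of the 100 nM library (0.785 to 0.793%). The intervals of the 3 libraries did not overlap, and the share was lowest in DMSO and highest at 100 nM. The cytosolic set held 130002, 146489 and 164872 counts in that order. The mitochondrial set held 23238, 23656 and 25087 counts. Scaled for library size, the summed cytosolic counts were higher at 100 nM than in DMSO by 0.29 on the log2 scale (0.28 to 0.30) and the summed mitochondrial counts by 0.05 (0.03 to 0.08). The cytosolic share of all synthetase counts was 84.8% in DMSO (84.7 to 85.0%). It was 86.1% with 50 nM (85.9 to 86.3%), and 86.8% with 100 nM pyrvinium (86.6 to 86.9%).

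Per length, the cytosolic mRNAs were the more abundant set in each library. Their median level was 93.7 CPM (counts scaled by library size) per kilobase of gene model in DMSO, 113 at 50 nM and 120 at 100 nM. The mitochondrial medians were 21.7, 22.6 and 21.6. In DMSO, 15 of the 20 cytosolic synthetases lay above every mitochondrial one, and 16 did at 50 nM and 17 at 100 nM. The highest level per kilobase in DMSO was that of KARS (lysine), at 178, followed by QARS (glutamine), at 154, and NARS, at 152. At 100 nM the order was NARS at 193, GARS at 184 and KARS at 174. GARS stood at 124 per kilobase in DMSO, so it passed QARS (153 at 100 nM) and KARS between the libraries. The lowest cytosolic levels per kilobase in DMSO were VARS (valine), at 11.7, SARS (serine), at 17.9, and CARS, at 30.2. The deposited SARS model is 6306 bases long, the longest of the 36, and this length enters its level. Among the mitochondrial enzymes, IARS2 (isoleucine) was highest at 54.8 per kilobase in DMSO, and PARS2 (proline) was lowest at 2.51.

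**Figure D1:**
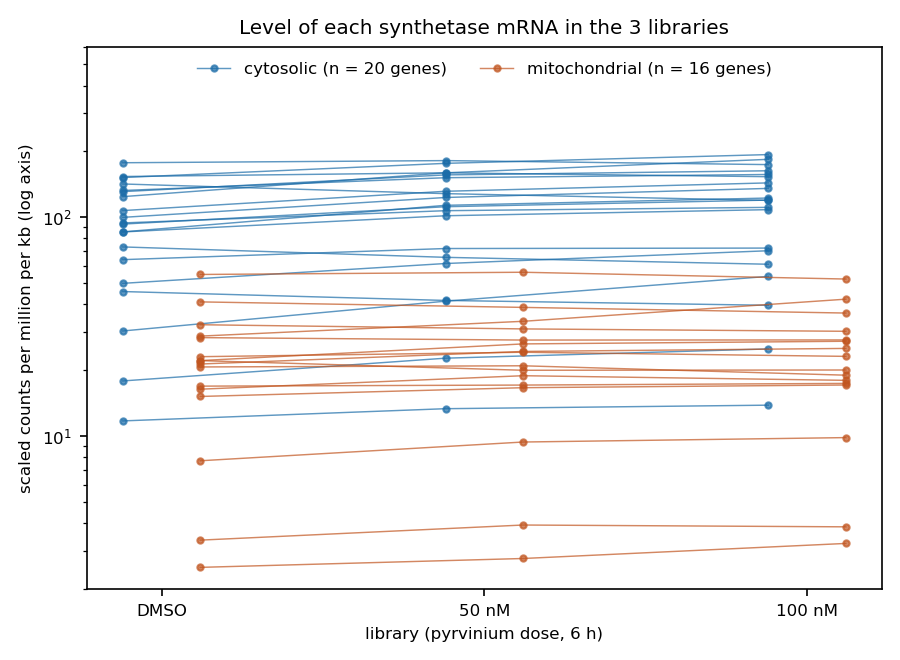
Level of each of the 36 synthetase mRNAs in the 3 libraries, in CPM scaled by library size, per kilobase of gene model, on a log axis. Each line joins the 3 values of a gene (blue, 20 cytosolic; orange, 16 mitochondrial, drawn slightly to the right). The cytosolic median moved from 93.7 to 120 and the mitochondrial median from 21.7 to 21.6 between DMSO and 100 nM.

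At 100 nM against DMSO, 10 of the 20 cytosolic synthetases rose and none fell. A gene was called at an adjusted p of at most 0.05 by a two-sided exact binomial test of the counts (Benjamini-Hochberg over 12879 genes) together with a change of at least 0.322 on the log2 scale in either direction, the fold limit used throughout. By this rule 10.3% of all genes tested rose and 8.2% fell. Variation between cultures was not measured. With an assumed coefficient of variation of 0.1 between cultures (edgeR's exact test), 1 of the 10 calls, CARS, was left, and with 0.2 there were 0. The 10 were CARS, GARS, AARS, WARS, SARS, MARS, IARS, YARS, NARS and LARS. The median log2 fold change of the 20 was 0.33, with a range of -0.26 to 0.83, beside a median of -0.0023 over all genes tested. No synthetase passed 2-fold, which 2.2% of all genes did in either direction. The counting interval lay above 0 for 15 cytosolic synthetases and below 0 for 3, where 24% and 25.3% of all genes did. The width of an interval depends on the counts, and the shares of all genes, here and below, were not matched for counts.

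CARS, which charges tRNA with cysteine and spans chr11:3022152-3078681 (hg19, minus strand), had the highest fold change of the 36. Its counts were 1981 (DMSO), 2647 (50 nM) and 3660 (100 nM). The log2 fold change between the DMSO and 100 nM libraries was 0.83 (95% interval 0.75 to 0.91), or 1.78-fold, with an adjusted p of 4.42e-96 by the exact binomial test. CARS lay at the 95.9th percentile of all genes tested. GARS (chr7:30634181-30673649, plus strand), the glycine enzyme of both compartments, had 7921, 9936 and 12201 counts and a log2 fold change of 0.57 (0.53 to 0.61). AARS (chr16:70286297-70323412, minus strand), the alanine enzyme, had 6647, 8584 and 9874 counts and a log2 fold change of 0.51 (0.47 to 0.56). In each of these 3 genes the 50 nM value lay between those of DMSO and 100 nM.

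WARS and SARS rose by nearly the same amount. WARS, which charges tryptophan and is also known as an interferon-inducible gene, had 3433, 4130 and 5033 counts and changed by 0.49 on the log2 scale (0.43 to 0.56). SARS, the serine enzyme, which also loads the selenocysteine tRNA with serine, had 2612, 3241 and 3805 counts and likewise changed by 0.49 (0.41 to 0.56). MARS, the methionine enzyme, had 6473, 7791 and 9133 counts, and its change was 0.44 (0.39 to 0.49). An exon of MARS overlaps DDIT3, which encodes the stress transcription factor CHOP, by 63 bases on the opposite strand, 2.25% of the MARS length. DDIT3 had 236, 319 and 500 counts. The strand setting of the authors' read counting is not given, and the part of shared reads in either gene was not tested.

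IARS, YARS, NARS and LARS made up the rest of the 10. IARS, the isoleucine enzyme, had 11381, 13616 and 15845 counts and a log2 fold change of 0.42 (0.39 to 0.46). YARS, the tyrosine enzyme, had 6726, 7884 and 9007 counts and a change of 0.36 (0.32 to 0.41), and 115 of its bases overlap S100PBP on the opposite strand, whose counts were 854, 789 and 789. In all of the 10 genes the scaled value was lowest in DMSO and highest at 100 nM. NARS, the asparagine enzyme, had 10098, 11449 and 13377 counts and a change of 0.35 (0.31 to 0.39). LARS, the leucine enzyme, which also acts as a leucine sensor for mTORC1, had 9631, 11153 and 12669 counts, and its change of 0.34 (0.30 to 0.38) was the smallest inside the fold limit. TARS, the threonine enzyme, lay just outside it, with 8653, 10076 and 11210 counts and a change of 0.317 (0.28 to 0.36).

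RefSeq names pseudogenes for several of these genes, among them AARS, CARS, GARS, NARS and WARS, and reads that fit a copy as well are uncertain. The copy with a row in the count tables, WARS1P1, had 1, 0 and 0 counts.

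The other cytosolic synthetases did not reach the fold limit. EPRS, the fused glutamate and proline enzyme, had 15409, 17212 and 18970 counts, the highest of the 36, and a log2 fold change of 0.24 (0.21 to 0.27). DARS (aspartate), on 5071, 5633 and 6215 counts, and VARS, on 1168, 1297 and 1434, each had a change of 0.24, and FARSB, the β subunit of the phenylalanine enzyme, of 0.18 (0.11 to 0.24). QARS had 8649, 8780 and 8981 counts and a change of -0.0026 (-0.05 to 0.04), and KARS had 9023, 9012 and 9204 counts and a change of -0.03 (-0.07 to 0.01). The intervals of these last 2 genes held 0. On the other side, HARS (histidine) stood at -0.21, FARSA (the α subunit for phenylalanine) at -0.25 and RARS (arginine) at -0.26, each with an interval below 0 and none past the fold limit. The counts of RARS were 3631, 3178 and 3148, highest in DMSO. FARSA had 6097, 5379 and 5336 counts while its partner FARSB had 3314, 3638 and 3894, so the 2 subunits of the same enzyme stood on opposite sides of 0.

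**Figure D2:**
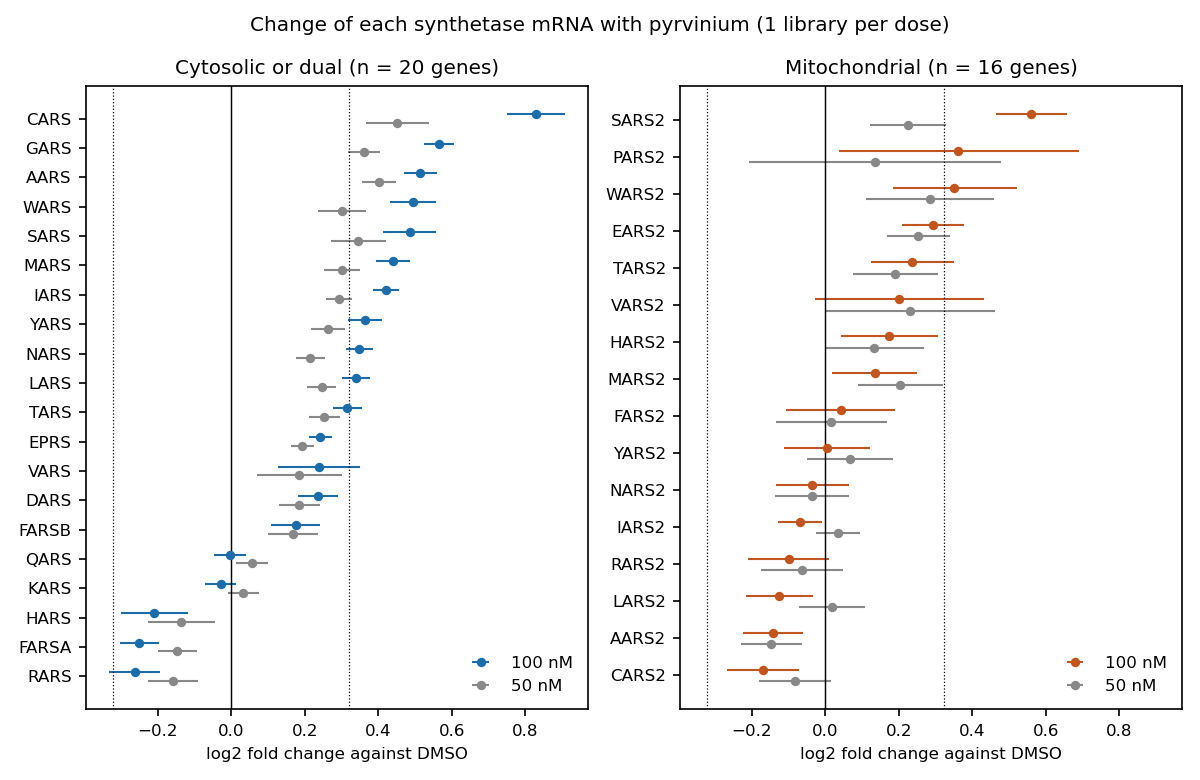
Log2 fold change of each synthetase at 100 nM (coloured points) and 50 nM (grey points) against DMSO, with bars for the 95% counting interval and dotted lines at the fold limit of 0.322 in either direction. The 20 cytosolic genes are on the left, ordered from CARS at 0.83 to RARS at -0.26, and the 16 mitochondrial genes on the right, from SARS2 at 0.56 to CARS2 at -0.17. All points of a dose share the DMSO library.

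Of the 16 mitochondrial synthetases, 2 rose at 100 nM, and none fell, beside the 10.3% and 8.2% of all genes that did. Their median log2 fold change was 0.09, with a range of -0.17 to 0.56. The interval lay above 0 for 7 and below 0 for 4, where 24% and 25.3% of all genes did. The number below 0 was thus near the share of all genes. SARS2 (chr19:39405904-39421536, minus strand), the mitochondrial serine enzyme, had 1418, 1618 and 2176 counts. Its log2 fold change was 0.56 (0.46 to 0.66), with an adjusted p of 4.79e-29 by the exact binomial test. SARS2 shares 189 exonic bases, 8.85% of its length, with MRPS12 on the opposite strand, and MRPS12 went the other way, with 2890, 2454 and 2411 counts. WARS2, for tryptophan, had 507, 603 and 673 counts and a change of 0.35 (0.18 to 0.52), with an adjusted p of 0.000161.

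PARS2 had the second-highest change of the mitochondrial set, 0.36, on 139, 149 and 186 counts. Its interval ran from 0.04 to 0.69 and its adjusted p was 0.0621, so it did not pass the exact binomial test. EARS2 (glutamate) followed with 2033, 2366 and 2592 counts and a change of 0.29 (0.21 to 0.38), below the fold limit. TARS2, on 1178, 1313 and 1444 counts, had a change of 0.24, VARS2 of 0.20 and HARS2 of 0.17. MARS2, on 1150, 1294 and 1313 counts, had a change of 0.13. For VARS2, with 290, 332 and 347 counts, the interval of -0.03 to 0.43 held 0. FARS2 (0.04), YARS2 (0.0048), NARS2 (-0.04), IARS2 (-0.07) and RARS2 (-0.10) lay nearest to 0. IARS2, the most abundant of the set, had 4507, 4505 and 4468 counts, and its interval of -0.13 to -0.0095 lay below 0. LARS2 stood at -0.13, AARS2 at -0.14, on 2453, 2164 and 2312 counts, and CARS2 at -0.17, on 1772, 1633 and 1639 counts. These last 3 had intervals below 0 and changes short of the fold limit.

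Set side by side for the same amino acid, the cytosolic and mitochondrial enzymes differed most for cysteine. For 17 pairs, the difference of the 2 log2 fold changes at 100 nM (cytosolic minus mitochondrial) was given an exact conditional interval of the odds ratio of the 4 counts. EPRS entered with EARS2 and with PARS2, and FARS2 with FARSA and with FARSB. The difference lay above 0 for 7 pairs, below 0 for 3, and its interval held 0 for 7, with a median of 0.13. Such counts were not made over other pairs of genes, here or in the comparisons below. Of all single genes tested, 24% had an interval above 0 and 25.3% had one below 0. For CARS against CARS2 it was 0.998 (0.87 to 1.12), and the ratio of their levels per kilobase was 0.736 in DMSO, 1.07 at 50 nM and 1.47 at 100 nM, so the order of the 2 mRNAs turned. For AARS against AARS2 it was 0.66 (0.56 to 0.75), with level ratios of 3.88, 5.67 and 6.11. The other 5 pairs above 0 were isoleucine (0.49), leucine (0.46), asparagine (0.38), tyrosine (0.36) and methionine (0.31).

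The serine and tryptophan pairs rose in both compartments. The difference between SARS and SARS2 was -0.08 (-0.20 to 0.05) and that between WARS and WARS2 was 0.14 (-0.04 to 0.32). These intervals allow a difference of either sign for both pairs. The 3 pairs below 0 were histidine at -0.38 (-0.54 to -0.22), FARSA against FARS2 at -0.29 (-0.45 to -0.13) and arginine at -0.16 (-0.29 to -0.03). HARS and HARS2 lie head to head on chromosome 5, with 46 bases between the deposited gene models. HARS had 2084, 1853 and 1876 counts and HARS2 had 876, 938 and 1028, so the changes of these neighbours had opposite signs.

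**Figure D3:**
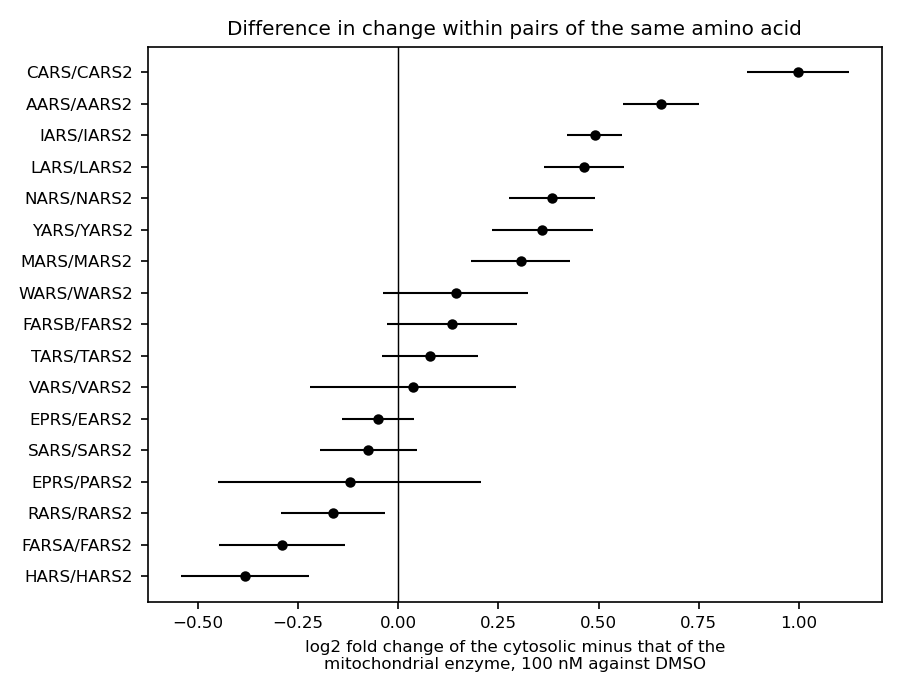
Difference of the log2 fold changes at 100 nM against DMSO between the cytosolic and the mitochondrial enzyme of the same amino acid, for 17 pairs, with bars for the exact 95% counting interval. Points right of 0 are pairs in which the cytosolic log2 fold change, with its sign, was the higher, led by CARS/CARS2 at 0.998. HARS/HARS2 is lowest at -0.38.

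At 50 nM against DMSO, 4 cytosolic synthetases rose, AARS, CARS, GARS and SARS, and no mitochondrial one did. By the same rule 4.56% of all genes rose and 3.8% fell, and no synthetase passed 2-fold, where 0.955% of all genes did. CARS had a log2 fold change of 0.45 (0.37 to 0.54), AARS of 0.40 (0.36 to 0.45), GARS of 0.36 (0.32 to 0.40) and SARS of 0.35 (0.27 to 0.42). The other cytosolic genes called at 100 nM had smaller values at 50 nM, from 0.30 for WARS and MARS and 0.29 for IARS to 0.26 for YARS, 0.25 for LARS and 0.22 for NARS. In the mitochondrial set, WARS2 stood at 0.28 and SARS2 at 0.22. All 4 of the genes that rose at 50 nM are also among those that rose at 100 nM, and the comparisons share the DMSO library. The cytosolic median was 0.23 and the mitochondrial median was 0.10, beside 0.00071 over all genes. The interval lay above 0 for 16 cytosolic and 5 mitochondrial synthetases, where 18.6% of all genes did. It lay below 0 for 3 cytosolic synthetases, HARS, FARSA and RARS, and for AARS2, where 18.5% of all genes did.

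Summed over the set and scaled, the cytosolic counts were higher at 50 nM by 0.21 on the log2 scale (0.20 to 0.22) and the mitochondrial counts by 0.06 (0.03 to 0.09). Of the 17 pairs, 6 had a difference above 0 at 50 nM, 2 below 0, and 9 had an interval that held 0. The differences ran from -0.27 for histidine to 0.55 for alanine, with cysteine at 0.54.

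At 100 nM against 50 nM, CARS (0.38, interval 0.30 to 0.45) and SARS2 (0.34, 0.24 to 0.43) were the 2 synthetases that rose, by a rule that 1.82% of all genes passed upward and 1.16% downward. None passed 2-fold, where 0.497% of all genes did. The interval lay above 0 for 12 cytosolic synthetases and 1 mitochondrial synthetase (12.5% of all genes) and below 0 for 4 and 2 (14.3% of all genes). Among the 4 below 0 were KARS and QARS, both at -0.06. The cytosolic median was 0.08 and the mitochondrial median 0.0029. The summed cytosolic counts differed by 0.08 (0.07 to 0.09) and the summed mitochondrial counts by -0.01 (-0.03 to 0.02). Of the 17 pairs, 7 lay above 0, led by cysteine at 0.46 (0.34 to 0.59), and the serine pair was the only one below 0, at -0.20 (-0.31 to -0.08).

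The 50 nM value lay between those of DMSO and 100 nM for 18 of the 20 cytosolic synthetases, 15 of them stepwise up and 3 (HARS, FARSA and RARS) stepwise down. KARS and QARS were the exceptions. Of the 16 mitochondrial synthetases, 9 had the 50 nM value in between, 7 upward and 2 downward, and of all genes tested 56.4% did. By direction, 28.4% of all genes tested went stepwise up and 28.0% stepwise down. These orders rest on the same 3 libraries.

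By enzyme class, and beside the 10.3% of all genes that rose, 6 of 9 cytosolic class I enzymes rose at 100 nM (median log2 fold change 0.36), and 4 of 10 class II enzymes did (median 0.28), with EPRS counted in neither because it joins a domain of each class. In the mitochondrial set, 1 of 9 class I enzymes (WARS2, median of the class 0.0048) and 1 of 7 class II enzymes (SARS2, median 0.17) rose, which is near the share of all genes. Both cytosolic classes held genes that rose beside genes below 0, RARS and QARS in class I and FARSA, HARS and KARS in class II. Of the 8 cytosolic synthetases of the multi-synthetase complex, IARS, LARS and MARS rose (median 0.24), and of the 12 outside it, 7 rose (median 0.36). The 3 scaffold proteins of the complex did not pass the fold limit, with changes of -0.01 for AIMP1, 0.22 for AIMP2 and -0.13 for EEF1E1. Within the complex the changes ran from -0.26 for RARS to 0.44 for MARS.

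Read against the promoter letters shown above, all 7 cytosolic synthetases with TGATGNAA were higher at 100 nM, from 0.32 (TARS) to 0.83 (CARS), with a median log2 fold change of 0.44. Of the 9 cytosolic synthetases with an entry and without the motif, 4 were higher, with a median of -0.0026 and a range of -0.26 to 0.49. Among all genes tested, 49.6% were higher. WARS and SARS, both at 0.49, lacked the motif in these windows. HARS, FARSA, RARS, KARS and QARS lacked it as well. YARS2, the mitochondrial synthetase with the motif, had 1165, 1192 and 1216 counts and a change of 0.0048, and its window does not have T or C after the motif. SARS2 and WARS2 lacked the motif. SEPHS1, the gene with the motif among the other genes of tRNA charging, had a change of 0.09 and was not called. The changes of the remaining genes with the motif were not examined. The split is a description of 16 and 14 genes, and no test was made on it.

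The other genes of tRNA maturation, export, editing and delivery were split evenly between higher and lower. Of 24 such genes, taken by their known part in the path, 12 were higher and 12 lower at 100 nM, with a median log2 fold change of -0.0033. The 24 include the scaffold proteins of the multi-synthetase complex and TARSL2, a synthetase-like gene outside the 36, with a change of -0.08. XPOT and SEPSECS rose and MTFMT fell, 2 and 1 of 24, beside 10.3% and 8.2% of all genes, so the group held no more calls than genes in general. XPOT, the exportin that carries tRNA out of the nucleus, had 9048, 10647 and 13334 counts and a change of 0.50 (0.46 to 0.54). SEPSECS, which makes selenocysteine on the tRNA that SARS has loaded with serine, had 818, 915 and 1134 counts and a change of 0.41 (0.28 to 0.55). MTFMT, which formylates the mitochondrial initiator methionyl-tRNA, had 451, 352 and 369 counts and fell by 0.35 on the log2 scale (-0.55 to -0.15). It also fell at 50 nM, by 0.32, the only gene of the 24 called in that comparison, and none was called between 50 and 100 nM.

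The following genes did not pass the fold limit in either direction. EEF1A1, the elongation factor that delivers charged tRNA to the cytosolic ribosome, had a change of 0.22, and TUFM, its mitochondrial counterpart, of -0.02. TRNT1, which adds the CCA end that synthetases load, stood at 0.26 on 1262, 1416 and 1570 counts. SSB, the La protein that binds tRNA precursors, stood at -0.25 on 7514, 6806 and 6572 counts. The 3 subunits of the enzyme that turns glutamyl-tRNA into glutaminyl-tRNA in mitochondria stood at 0.15 (GATC), 0.07 (QRSL1) and 0.0076 (GATB). The editing factors AARSD1, DTD1 and DTD2 ranged from -0.11 to 0.05.

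**Figure D4:**
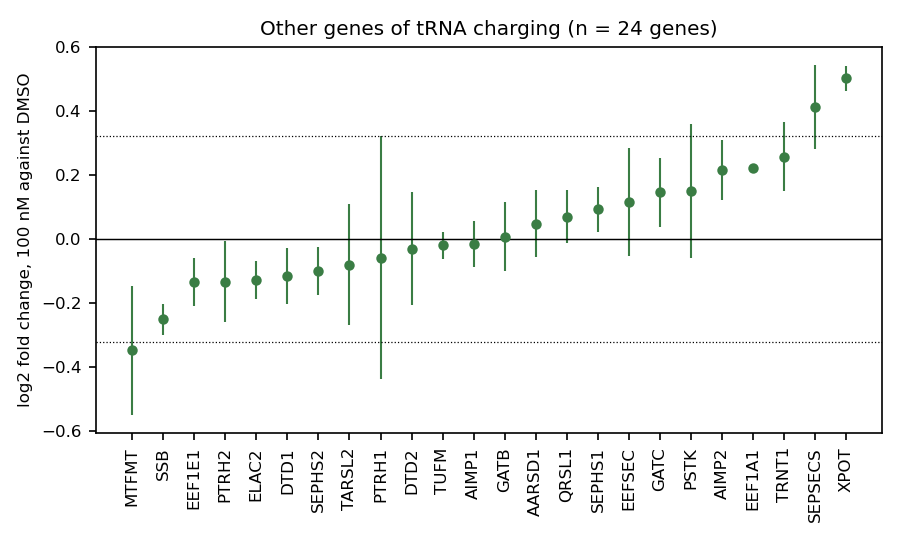
Log2 fold change at 100 nM against DMSO of 24 other genes of tRNA charging, ordered by value, with bars for the 95% counting interval and dotted lines at the fold limit of 0.322 in either direction. XPOT at 0.50 and SEPSECS at 0.41 lie above the upper line, and MTFMT at -0.35 lies below the lower one.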

How the data were processed

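Per the paper's methods, the authors built stranded mRNA libraries, sequenced paired reads and aligned them to hg19 with Rsubread. The deposited tables hold whole-number counts per numeric gene identifier, read here as raw counts per Entrez gene from their values and headers. The strand setting of the counting is not given in the sources used here. A deposited table of EBSeq comparisons (posterior probabilities and fold changes) was not used. Of 25702 identifiers, 23696 were matched to RefSeq (GRCh38.p14) for names, among them all 36 synthetases, and genes keep their older symbols.

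Library sizes were scaled by TMM (edgeR 4.0.16, R 4.3.3). The 12879 genes that reached 10 counts in any library were tested with a two-sided exact binomial test of the counts of a pair of libraries given the scaled sizes (the smaller tail doubled, scipy 1.17.1), with Benjamini-Hochberg adjustment. Log2 fold changes had 0.5 counts added, and intervals are 95% Clopper-Pearson. A count of 3, the limit that a count of 0 allows, is 1.25e-05% to 1.32e-05% of a library. The change of every synthetase at 100 nM is given, with counts and an interval for those called. The members, the lists and the fold limit were chosen with earlier results of these data known. The procedure was tested on simulated data that held counting error only. That simulation cannot address variation between cultures. Protein sequences were not used here. The alternatives tried were scaling by DESeq2 1.42.0 or by library totals, other filters, fold limits, added counts, assumed variation, a dose trend and a longer motif.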

Additional observations from a re-analysis of the deposited data

How the results depend on the processing

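All 12 synthetases that rose at 100 nM against DMSO were called again with DESeq2 size factors, with total counts, with a filter of at least 1 or at least 50 counts, and with 5 counts added. A dose trend fitted linearly through the 3 libraries (edgeR's quasi-likelihood test, 1 residual degree of freedom) also called 10 cytosolic and 2 mitochondrial synthetases higher and 0 lower, among 1805 of all 12879 genes called in either direction. The error term of this trend comes from departures from a straight line with 1 library per dose. It does not measure variation between cultures. The calls depended on the fold limit, and the share of all genes called at 1.1-fold and at 1.5-fold was not counted. At a limit of 1.1-fold, 100 nM against DMSO gave 15 cytosolic synthetases higher and 3 lower, and 5 mitochondrial ones higher and 2 lower, while 50 nM against DMSO gave 15 cytosolic higher and 2 lower, and 5 mitochondrial higher and 1 lower. At 1.1-fold, 100 nM against 50 nM gave 5 cytosolic higher and 0 lower, and 1 mitochondrial higher and 1 lower. At 1.5-fold, 1 cytosolic (CARS) and 0 mitochondrial synthetases were called higher at 100 nM against DMSO, and 0 in the other comparisons. Requiring the 9-letter motif moved the mitochondrial share to 0%.

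Variation between cultures was not measured. In edgeR's exact test with the coefficient of variation between cultures set to 0.1, 1 cytosolic synthetase (CARS) and 0 mitochondrial ones were called at 100 nM against DMSO, among 244 of all 12879 genes, a share close to that of the synthetases, and 8 synthetases had an unadjusted p under 0.05, all higher. With 0.2, 0 were called and 1 had such an unadjusted p, and with 0.4 there were 0 of either. At 50 nM against DMSO, 0 were called at each of these values and 1 had such an unadjusted p at 0.1. At 100 nM against 50 nM, 0 were called and 0 had such a p. The share of all genes with an unadjusted p under 0.05 was not counted in any of these settings. No paired analysis was possible because each condition had 1 library.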
